A study of Mus musculus with 8 samples.

Results

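Oxidative phosphorylation (OXPHOS) subunits encoded in the nucleus were taken as the protein-coding genes whose symbols begin with the gene stems of complexes I to V and of cytochrome c (Nduf followed by a, b, c, s or v and a digit, Sdha to Sdhd, Uqcr, Cyc1 and Cycs, Cox4 to Cox8, and Atp5), without the Ndufaf assembly factors. This gave 87 of the 54532 genes in the table, of which 76 had enough counts to be tested. Another 14 genes matched the same stems but were not annotated as protein-coding and were left out. The samples were intestinal epithelial cells of mice at lactation day 5, from 4 WT and 4 Rank-knockout animals with 1 library each. Rank (Tnfrsf11a) is a receptor of the TNF receptor family that signals to NF-κB. In the knockout a floxed Rank allele was deleted by Vil-cre, a recombinase driven by the promoter of villin, which is active in the epithelium of the intestine, so that other cells in the samples keep the gene. Per the study's methods the mice were C57BL/6J females, WT and knockout were littermates matched for age, and both were mated to wild-type males. Whether the WT animals carried the floxed allele or Cre, and the ages of these 8 animals, are not given in the sources used here. Cells were released from the tissue with a dissociation reagent and strained, with no sort described.

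OXPHOS makes most of the ATP of an absorptive cell. Complexes I and II pass electrons from NADH and succinate to ubiquinone, complex III passes them on to cytochrome c and complex IV to oxygen, while complexes I, III and IV pump protons that drive ATP synthase, complex V. Except for complex II, each complex joins subunits translated in the cytosol from nuclear genes with subunits made inside the mitochondrion from mitochondrial DNA. Reads of the mitochondrial chromosome were removed before counting, so only the nuclear part is described.

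Each value is a count of sequence tags from the 3′ end of polyadenylated mRNA. Libraries held 1530781 to 4335653 counts, and the members took 2.99% to 3.78% of them. Levels are given in CPM, counts scaled to library size after TMM, which sets libraries to a common level across most genes. Since a transcript gives about 1 tag whatever its length, CPM was not divided by length. Log2 fold changes have WT as the baseline, so that values above 0 mean a higher level in Rank-knockout, and stand with their standard error (SE), and a gene was called changed at an adjusted p under 0.05 in edgeR's quasi-likelihood test over 9855 genes. By that rule 2993 genes were called, 30.4% of those tested, with 15.8% higher and 14.6% lower in Rank-knockout. With library totals in place of TMM, 2575 genes were called higher and 857 lower. Markers of epithelial cell states also differed. Of 10 general epithelial markers 3 were called higher (Krt18, Krt19 and Cdx1) and 3 lower (Epcam, Krt20 and Vil1). Of 12 villus enterocyte markers 11 were called lower, and their summed level was 29956 to 41658 CPM in WT against 14060 to 19650 CPM in Rank-knockout. All 23 tested genes of replication and the cell cycle were called higher. None of 8 tested T cell markers was called, with sums of 239.0 to 368.8 CPM in WT against 168.2 to 276.2 CPM in Rank-knockout, and 1 of 2 tested plasma and B cell markers was called lower. The part of these shifts in any result was not tested, and in such bulk samples fewer cells of a type cannot be told apart from less RNA per cell. Tnfrsf11a itself gave 41.7 to 77.4 CPM in WT against 27.2 to 47.2 CPM in Rank-knockout. The deleted exons are not given in the sources used here, so whether its 3′ tags can show the deletion was not tested. WT replicate 2 and Rank-knockout replicate 4 stood apart from their groups for several members.

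Very few OXPHOS subunit mRNAs changed upon loss of RANK. Of the 76 tested members 2 were called higher, Ndufa8 and Atp5g1, and 1 was called lower, Cox7a1, which makes 3.95% against the 30.4% of all genes. The other 73 were not called. Fold changes were above 0 for 38 members and below 0 for 38, with a median of 0.0014, against 0.024 for all genes tested. Their SD was 0.21 over members and 0.60 over all genes. The median SE was 0.15 for members and 0.21 for all genes. The 95% confidence interval of the fold change lay within 2-fold either way for 92.1% of members and 60.2% of all genes. It lay within 1.5-fold for 75% of members and 20.6% of all genes. For 3 members, again Ndufa8, Atp5g1 and Cox7a1, the WT and Rank-knockout libraries did not overlap, whereas 28.8% of all genes had no overlap.

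**Figure D1:**
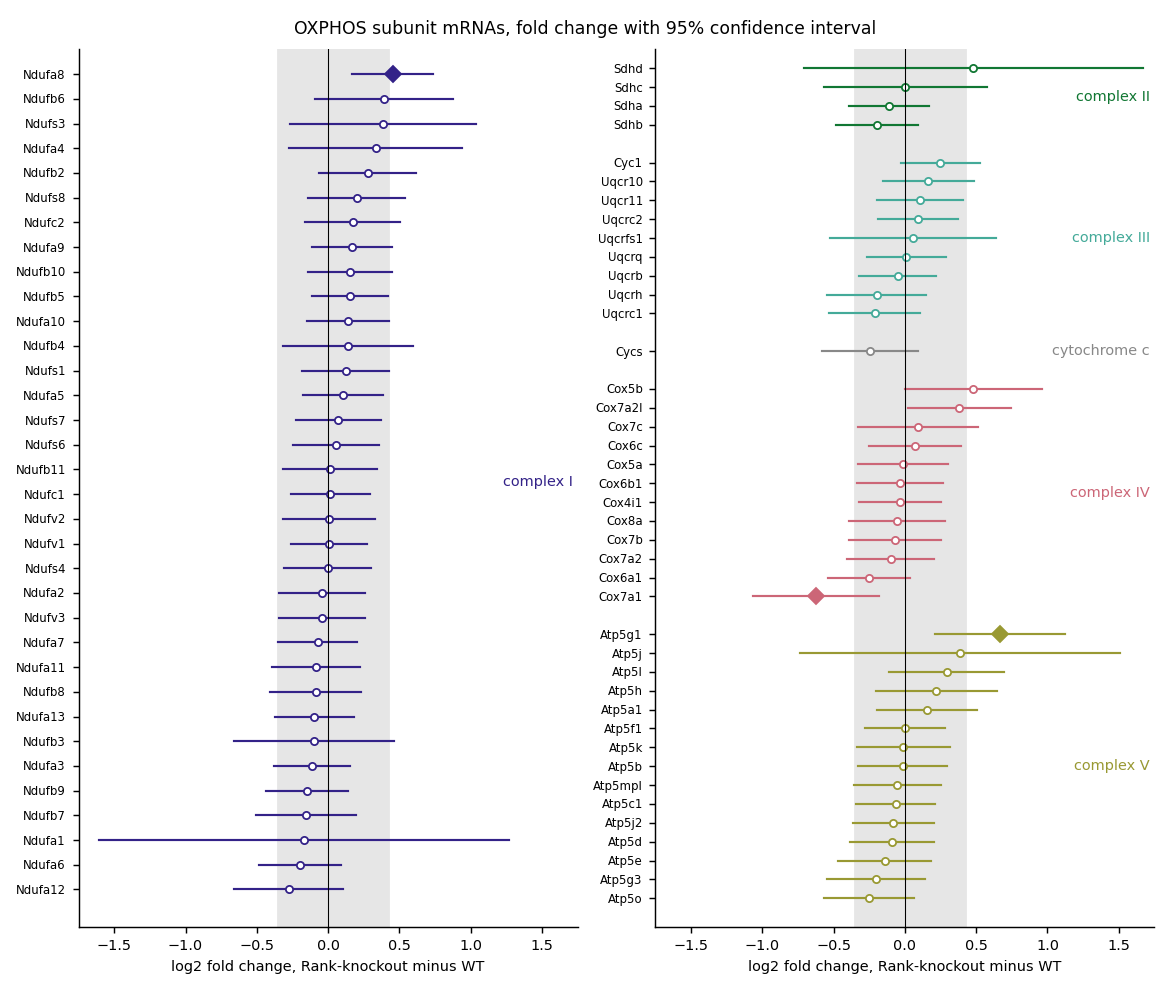
Log2 fold change of 75 of the 76 tested members (Rank-knockout minus WT, horizontal axis) with its 95% confidence interval, ordered within complexes. Filled diamonds mark the 3 called members, Ndufa8, Atp5g1 and Cox7a1, open circles the 72 others drawn, and the grey band spans the middle part of all genes tested, from -0.35 (25th percentile) to 0.43 (75th percentile).

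Summed over all members, the level was 34346 ± 2853 CPM in WT against 33119 ± 2010 CPM in Rank-knockout (SD, n = 4), or 96.4% of WT. Lowest and highest libraries were 32104 and 38135 CPM in WT against 31045 and 35865 CPM in Rank-knockout, so the groups overlapped. Complex I subunits reached 99.6% of the WT sum, complex II 92.5%, complex III 96.6%, complex IV 96.8% and complex V 94.4%, and every complex overlapped between the genotypes. Scaled by library totals, the direction turned, with sums at 110.6% of WT for all members, 114.2% for complex I, 106.1% for complex II, 110.8% for complex III, 110.9% for complex IV and 108.3% for complex V, and the complex I sum then did not overlap (7541 to 8688 CPM in WT against 9135 to 9755 CPM in Rank-knockout). The sum over mitochondrial ribosomal proteins, 145.7% of WT with TMM and 167.4% with library totals, did not overlap on either scale.

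**Figure D2:**
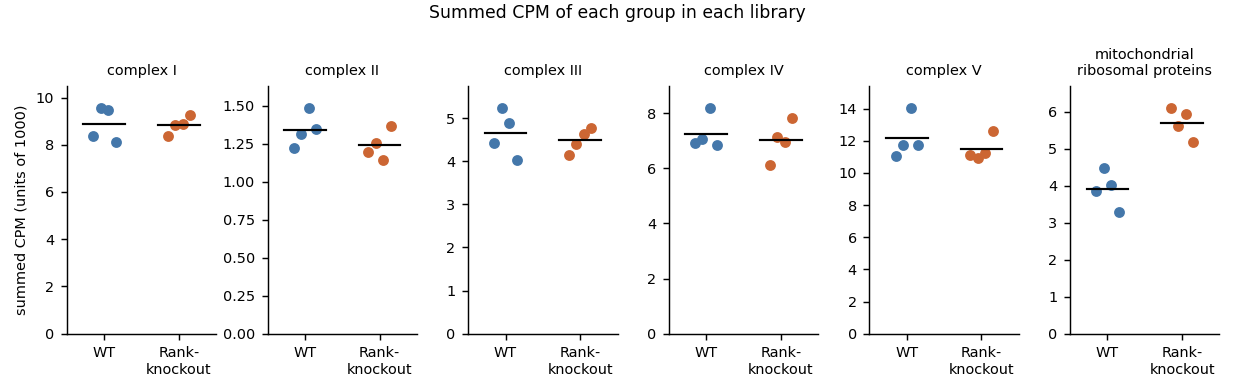
Summed CPM (vertical axis from 0, in units of 1000) of the members of complexes I to V and, for comparison, of mitochondrial ribosomal proteins, with 1 point per library and a bar at the mean of 4 libraries. On this TMM scale WT and Rank-knockout points overlap in each of the complexes (complex I does not overlap under library totals), and mitochondrial ribosomal proteins lie at 3290 to 4481 CPM in WT against 5175 to 6099 CPM in Rank-knockout.

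The scale matters for the direction of such small values. Under library totals in place of TMM, the median of the members was 0.20 and that of all genes 0.23, and 9 members were called higher and 0 lower, or 11.8% against 34.8% of all genes. Relative to all genes, the members' median was -0.023 under TMM and -0.024 under library totals.

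Complex I, the NADH dehydrogenase, had 37 members. Of its 35 tested members 1 was called higher and 0 lower, with a median log2 fold change of 0.015 and a range of -0.28 to 0.45. Ndufa8, an accessory subunit on the intermembrane space side, was at 92.5, 91.2, 103.8 and 86.5 CPM in WT against 137.8, 112.6, 129.5 and 131.3 CPM in Rank-knockout. Every Rank-knockout library lay above every WT library, and the log2 fold change was 0.45 (SE 0.14, adjusted p = 0.0192). The adjusted p was 0.0636 without WT replicate 1 and 0.0814 without WT replicate 4, and the call also ended when a trend with transcript length was taken out (0.29, adjusted p = 0.114). The gene lies at chr2:36036326-36049406 on the minus strand (GRCm38).

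The catalytic core of complex I carries the flavin and the iron-sulfur clusters that lead electrons to ubiquinone. None of the 6 nuclear subunits described here was called, and their fold changes ran from 0.0052 to 0.39. Ndufv1, which binds NADH and flavin, was at 163.8 ± 10.6 CPM in WT against 164.7 ± 7.5 CPM in Rank-knockout (SD, n = 4), with a confidence interval of -0.26 to 0.27. Ndufs1, the large iron-sulfur subunit, had an interval of -0.18 to 0.43. Ndufv2, Ndufs7 and Ndufs8, which also hold iron-sulfur clusters, had fold changes of 0.01, 0.07 and 0.20. Ndufs3 had the largest fold change of these 6, 0.39 (SE 0.31, adjusted p = 0.363), at only 7.10 to 17.1 CPM in WT against 9.76 to 18.0 CPM in Rank-knockout. Its libraries overlapped, the fold change was 0.14 without WT replicate 2, and 53.0% of the 50-base windows in its last 300 transcript bases also occur in a processed pseudogene, so its tags may be lost or shared.

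Among the accessory subunits of complex I, Ndufb8 had the highest mean level. It stood at 939.8, 1361, 1093 and 944.5 CPM in WT against 975.6, 1023, 1001 and 1086 CPM in Rank-knockout, and the groups overlapped. Ndufb6 had a fold change of 0.39 (SE 0.23, adjusted p = 0.209), from 56.2, 37.2, 94.2 and 70.6 CPM in WT to 83.4, 70.5, 79.6 and 97.8 CPM in Rank-knockout. Without WT replicate 3, the highest WT library, Ndufb6 was called higher (0.62, adjusted p = 0.0420), whereas without WT replicate 2, the lowest, the fold change was 0.16 (adjusted p = 0.525). At the other end, Ndufa12 had -0.28 (SE 0.18, adjusted p = 0.260), and its WT libraries, at 127.4, 233.6, 177.6 and 129.1 CPM, overlapped those of Rank-knockout, at 142.4, 123.1, 141.2 and 148.1 CPM. Without WT replicate 2, the highest, it was -0.07. Ndufa6, a small subunit of the LYR family that contacts the acyl carrier protein, had -0.20 (SE 0.14, adjusted p = 0.281), from 462.4, 405.2, 514.2 and 493.2 CPM to 367.6, 400.8, 423.1 and 440.2 CPM. With the length trend taken out Ndufa6 was called lower (-0.40, adjusted p = 0.0377).

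Ndufa1, a membrane-anchored accessory subunit encoded on the X chromosome, showed how far 1 library can carry a value. It was at 233.6, 28.9, 230.1 and 225.0 CPM in WT against 138.0, 138.8, 138.5 and 212.7 CPM in Rank-knockout. WT replicate 2 was at 12.6% of the mean of the other WT libraries, and Rank-knockout replicate 4 was the highest of its group. With all libraries the log2 fold change was -0.17 (SE 0.60, adjusted p = 0.862). Without WT replicate 2 it was -0.55 (adjusted p = 0.0174), and Ndufa1 was then called lower. Ndufa4, which is now placed in complex IV although its symbol belongs to complex I, had 0.33 (SE 0.28, adjusted p = 0.392) with all libraries and 0.08 without WT replicate 2.

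Complex II, succinate dehydrogenase, is the only complex made wholly of nuclear subunits and also works in the citric acid cycle. None of its 4 members was called. Sdha, the flavoprotein that oxidizes succinate, was at 378.8, 454.6, 427.5 and 417.4 CPM in WT against 363.8, 413.1, 351.2 and 423.6 CPM in Rank-knockout, with a log2 fold change of -0.11 (95% confidence interval -0.40 to 0.17). Sdhb, the iron-sulfur subunit, was at 548.7, 710.3, 617.4 and 552.5 CPM and 506.9, 557.2, 522.9 and 537.5 CPM, with -0.19 (interval -0.48 to 0.09). Both pairs of groups overlapped.

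The membrane anchors of complex II, Sdhc and Sdhd, were measured less precisely. Sdhc was at 267.8, 140.6, 402.2 and 340.1 CPM in WT against 284.2, 255.2, 251.3 and 355.9 CPM in Rank-knockout, with a fold change of 0.0037 (interval -0.57 to 0.57). Sdhd was at 26.03, 7.35, 37.6 and 39.9 CPM in WT against 44.8, 27.4, 18.9 and 51.9 CPM in Rank-knockout, with 0.48 (interval -0.71 to 1.67). In both genes WT replicate 2 was the lowest WT library and Rank-knockout replicate 4 the highest of its group. Without these 2 libraries the fold changes were -0.36 for Sdhc (adjusted p = 0.0856) and -0.15 for Sdhd (adjusted p = 0.697).

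Complex III, the cytochrome bc1 complex, had 9 members, all tested and none called, with a median log2 fold change of 0.058. Cyc1, the cytochrome c1 that hands electrons to cytochrome c, was at 185.0, 179.4, 206.9 and 193.0 CPM in WT against 200.2, 225.5, 226.2 and 255.7 CPM in Rank-knockout. Only the lowest Rank-knockout library fell within the WT range, and the fold change was 0.25 (SE 0.13, adjusted p = 0.162). Under library totals it was called higher (0.45, adjusted p = 0.0128). Uqcrh, the hinge subunit beside cytochrome c1 and the member of highest mean CPM in this complex, was at 1904, 2563, 1931 and 1602 CPM and at 1452, 1816, 1939 and 1774 CPM, with overlapping groups and a fold change of -0.20 (SE 0.16, adjusted p = 0.388), or -0.06 without WT replicate 2. The core protein Uqcrc1 had -0.21 (SE 0.15, adjusted p = 0.300), from 324.0, 381.1, 431.6 and 329.5 CPM to 299.3, 268.3, 316.1 and 381.4 CPM. Uqcr10, a small membrane subunit, had 0.16 (SE 0.15, adjusted p = 0.437), from 472.7, 654.5, 547.0 and 428.0 CPM to 633.6, 559.5, 598.0 and 566.0 CPM. Groups overlapped for both. Uqcrfs1, the Rieske iron-sulfur protein, had 0.06 with a wide interval of -0.53 to 0.64, and -0.20 without WT replicate 2, again its lowest library.

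Cytochrome c, Cycs, carries electrons from complex III to complex IV. It was at 63.7, 75.5, 94.9 and 73.9 CPM in WT against 74.1, 61.9, 55.3 and 67.0 CPM in Rank-knockout. The groups overlapped, and the log2 fold change was -0.25 (SE 0.16, adjusted p = 0.256). Cyct, the testis form, was listed at 0 in all libraries.

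Complex IV, cytochrome c oxidase, had 18 members, of which 12 were tested, 0 called higher and 1 called lower, with a median of -0.034. The call was Cox7a1, the form of subunit VIIa typical of heart and skeletal muscle, which was at 271.3, 277.2, 353.1 and 329.5 CPM in WT against 112.5, 228.9, 203.7 and 255.2 CPM in Rank-knockout. All Rank-knockout libraries lay below all WT libraries. The fold change was -0.62 (SE 0.21, adjusted p = 0.0344). It rested on single libraries, since the adjusted p was 0.0903 without WT replicate 3 and 0.0806 without WT replicate 4, and omission of Rank-knockout libraries gave 0.0561 for replicate 1 and 0.0703 for replicate 3. Under library totals the adjusted p was 0.108. Markers of stromal and muscle cells, summed over 13 genes of which 3 were at 0, gave 11.3 to 19.8 CPM in WT against 6.29 to 20.3 CPM in Rank-knockout. The gene lies at chr7:30184144-30186078 on the plus strand (GRCm38). Cox7a2, the form found in most tissues, was at 442.5, 553.9, 568.2 and 434.7 CPM in WT against 438.1, 462.3, 434.3 and 530.1 CPM in Rank-knockout, with overlapping groups and -0.10 (interval -0.41 to 0.20).

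Another 2 members of complex IV had an unadjusted p at or under 0.05 without being called. Cox5b, the zinc-binding subunit, was at 39.0, 22.3, 48.5 and 39.9 CPM in WT against 40.1, 48.8, 49.5 and 65.1 CPM in Rank-knockout, with 0.48 (SE 0.23, adjusted p = 0.119), or 0.25 (adjusted p = 0.349) without WT replicate 2. Cox7a2l, which is not a subunit but joins complexes III and IV in supercomplexes, was at 71.9, 75.5, 74.4 and 57.9 CPM and at 72.8, 103.6, 113.8 and 77.5 CPM, with 0.38 (SE 0.17, adjusted p = 0.102). Both sets of libraries overlapped, and both genes were called higher under library totals, with adjusted p values of 0.0306 and 0.0145.

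Other structural subunits of complex IV that most cells share were not called. Cox4i1, the largest nuclear subunit, had an interval of -0.33 to 0.26, Cox5a one of -0.33 to 0.30, and Cox6b1, which faces cytochrome c, one of -0.34 to 0.27, while that of Cox7c was wider, -0.33 to 0.51. Cox6c, the member of highest mean CPM in complex IV, was at 2015, 2100, 2127 and 1823 CPM in WT against 1622, 2342, 2263 and 2236 CPM in Rank-knockout. Its groups overlapped and the fold change was 0.07 (SE 0.15, adjusted p = 0.768), while 38.2% of its end windows also occur in Cox6c2. Cox6a1, the widely used form of subunit VIa, had -0.25 (SE 0.14, adjusted p = 0.172), from 823.4, 882.3, 924.7 and 768.8 CPM to 661.6, 761.4, 660.1 and 772.1 CPM. In this gene only the highest Rank-knockout library reached the lowest WT library, and with the length trend taken out it was called lower (-0.45, adjusted p = 0.0221).

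Complex V, ATP synthase, had 18 members, of which 15 were tested, 1 called higher and 0 lower, with a median of -0.017. Its F1 head and central stalk, where ATP is made, comprises Atp5a1, Atp5b, Atp5c1, Atp5d and Atp5e. None of these 5 was called, and their fold changes ran from -0.14 to 0.15. Atp5b, the catalytic β subunit, was at 1234 ± 198 CPM in WT against 1219 ± 101 CPM in Rank-knockout (SD, n = 4), with an interval of -0.33 to 0.30. Atp5a1, the α subunit, was at 1327 ± 264 CPM and 1475 ± 199 CPM, with an interval of -0.20 to 0.50. The sum of the 5 was 100.3% of WT, and 115.1% under library totals, with overlap on both scales.

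The c-ring, which turns as protons pass, is built from 1 mature protein that 3 genes encode with different import sequences. Atp5g1 was called higher. It was at 24.0, 15.5, 18.4 and 24.0 CPM in WT against 24.6, 31.5, 39.6 and 32.4 CPM in Rank-knockout, so that the groups did not overlap but nearly touched. The log2 fold change was 0.67 (SE 0.21, adjusted p = 0.0276). Omission of a WT library ended the call for replicate 2 (adjusted p = 0.0859) and replicate 3 (adjusted p = 0.0672), and among Rank-knockout libraries for replicate 2 (adjusted p = 0.0542) and replicate 3 (adjusted p = 0.0885). Of its last 300 transcript bases 20.3% of the 50-base windows occur in transcripts of 10 other genes. The transcript used for this and for the length trend is its longest, of 4715 bases. Whether the tags come from that end was not tested. Atp5g3 was the member of highest mean CPM of all 76, at 3268, 2853, 4421 and 3673 CPM in WT against 2961, 2771, 3055 and 3550 CPM in Rank-knockout, with overlapping groups and -0.20 (SE 0.16, adjusted p = 0.359). Atp5g2 had 23 counts in all and was not tested, with 41.4% of its end windows shared. Atp5g1 lies at chr11:96068852-96075670 on the minus strand (GRCm38).

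**Figure D3:**
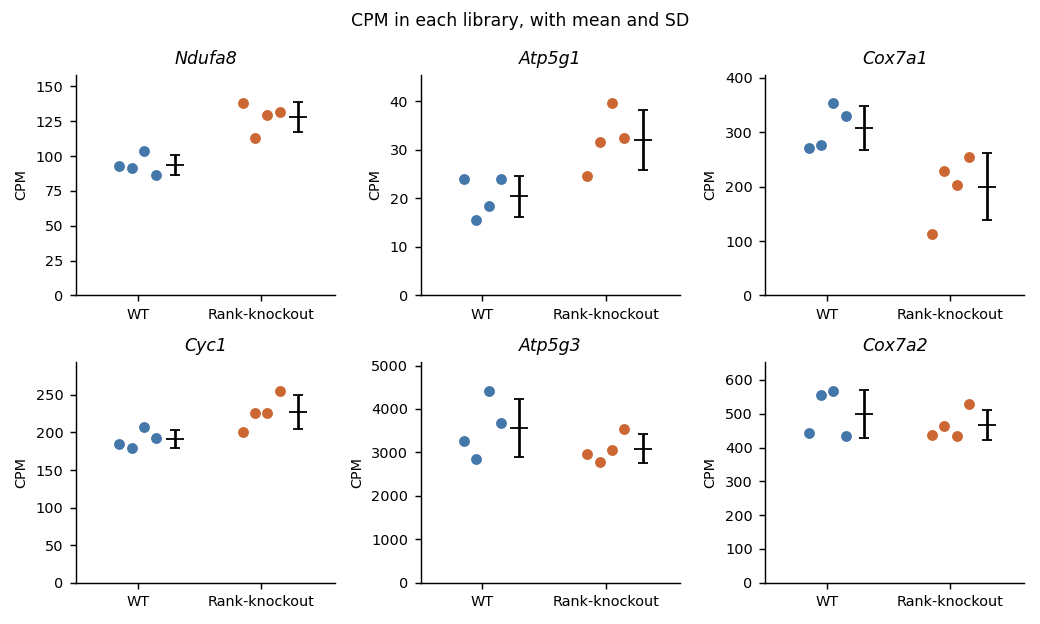
CPM (vertical axis from 0) in each of the 4 WT and 4 Rank-knockout libraries, with the mean and SD beside the points. Ndufa8, Atp5g1 and Cox7a1 are the called members, with no overlap between the groups, and Cyc1, Atp5g3 and Cox7a2 are uncalled members, with overlap.

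The peripheral stalk holds the head still against the ring. Atp5o, its top subunit, had -0.25 (SE 0.15, adjusted p = 0.218), from 1397, 1950, 1522 and 1400 CPM in WT to 1286, 1378, 1205 and 1404 CPM in Rank-knockout. It was called lower with the length trend taken out (-0.42, adjusted p = 0.0470) and had -0.13 without WT replicate 2. Atp5f1, the b subunit, had -0.001 (interval -0.28 to 0.28). Atp5j, coupling factor 6, had 0.39 with the widest interval of complex V, -0.74 to 1.51. Its WT libraries were at 120.6, 28.9, 159.8 and 153.8 CPM and its Rank-knockout libraries at 145.4, 122.7, 129.9 and 194.5 CPM, so that WT replicate 2 lay far below all others. Without that library and Rank-knockout replicate 4 the fold change was -0.13 (adjusted p = 0.531). Atp5h had 0.22 (adjusted p = 0.432) and a WT replicate 2 of 73.0 CPM against 145.9 to 157.8 CPM in the others, and the fold change was -0.002 without that library. None of the small membrane subunits Atp5j2, Atp5k, Atp5l, Atp5mpl and Usmg5, the last of which the gene stems do not reach, was called. The inhibitor of the enzyme, Atpif1, also outside the stems, was at 770.9 ± 37.1 CPM in WT against 685.4 ± 70.1 CPM in Rank-knockout (SD, n = 4), with -0.17 (adjusted p = 0.362).

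Members that were not tested numbered 11. Forms restricted to other tissues made up most of these. Cox4i2 (lung), Cox7b2 and Cox8c (testis), Cox8b (muscle) and Ndufa4l2 were listed at 0 in all 8 libraries, Cox6a2 (muscle) had 12 counts and Cox6b2 (testis) 77. Cox7a1 was thus the only one of this list with enough counts. Ndufs5, a complex I subunit used in all tissues, had 49 counts, with 54.6% of its end windows shared with BC002163. The others were Atp5g2, Atp5s with 37 counts, which is not a subunit of the enzyme, and a second identifier named Atp5o with 0 counts, 94.8% of whose end windows are shared with Donson.

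Promoters of the members were read from RefSeq (GRCm38.p6), from 250 bases before to 50 bases after the start of each gene, for 67 of the 86 distinct symbols. The 4 windows shown belong to the 3 called members and to Cox6a1, whose p was the smallest among members with a fold change below 0 and a motif match. Capitals mark letters of the searched motifs, GCGCATGC (NRF1 core), CCGGAAG (ETS, the family of GABP), AAGATGGCG (YY1), AAGGTCA (ERR site) and TGACGTCA (CRE), on either strand.
Ndufa8 promoter, chr2:36049289-36049588, minus strand: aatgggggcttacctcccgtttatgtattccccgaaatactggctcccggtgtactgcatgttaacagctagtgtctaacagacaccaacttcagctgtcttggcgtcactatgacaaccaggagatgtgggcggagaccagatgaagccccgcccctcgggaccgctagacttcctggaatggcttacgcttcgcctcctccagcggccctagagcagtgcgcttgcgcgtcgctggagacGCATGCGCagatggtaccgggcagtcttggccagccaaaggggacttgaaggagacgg
Cox6a1 promoter, chr5:115348909-115349208, minus strand: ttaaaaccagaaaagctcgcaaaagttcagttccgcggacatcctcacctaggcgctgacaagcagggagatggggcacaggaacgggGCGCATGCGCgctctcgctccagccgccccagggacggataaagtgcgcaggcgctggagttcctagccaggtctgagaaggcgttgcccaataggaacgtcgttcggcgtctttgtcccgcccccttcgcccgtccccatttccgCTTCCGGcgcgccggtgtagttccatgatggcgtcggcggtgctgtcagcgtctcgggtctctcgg
Atp5g1 promoter, chr11:96075582-96075881, minus strand: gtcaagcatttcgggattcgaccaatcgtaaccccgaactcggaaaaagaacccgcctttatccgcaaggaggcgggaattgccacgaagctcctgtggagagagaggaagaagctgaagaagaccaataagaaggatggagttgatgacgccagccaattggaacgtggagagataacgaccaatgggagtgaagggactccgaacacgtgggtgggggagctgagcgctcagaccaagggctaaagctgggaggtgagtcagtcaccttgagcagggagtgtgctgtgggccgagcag
Cox7a1 promoter, chr7:30183921-30184220, plus strand: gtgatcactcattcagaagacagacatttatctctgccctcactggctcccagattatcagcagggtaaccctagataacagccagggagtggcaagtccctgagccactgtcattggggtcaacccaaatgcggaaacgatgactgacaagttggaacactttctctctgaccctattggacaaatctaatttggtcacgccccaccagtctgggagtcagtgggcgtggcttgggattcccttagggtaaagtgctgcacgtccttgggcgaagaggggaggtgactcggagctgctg

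Ndufa8 held an NRF1 core at -8 from the start. Cox6a1 held overlapping NRF1 cores at -162 and -160 and an ETS match at -16. The windows of Atp5g1 and Cox7a1 held none of these letters. Among the 62 tested members with a window, the NRF1 core was in 16.1%, against 6.45% of the 7680 genes tested that have a window and 3.05% of all 27025 genes with one. For YY1 the shares were 11.3%, 4.18% and 1.64%, for the ERR site 11.3%, 3.96% and 5.38%, and for CRE 8.06%, 3.88% and 2.03%. ETS matches were in 25.8% of members, 22.4% of tested genes and 9.93% of all genes. NRF1, GABP and YY1 are known activators of nuclear genes for mitochondrial proteins.

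Of 15 tested regulators known to act on these genes 3 were called higher and 1 lower, or 26.7%, close to the 30.4% of all genes, and under library totals 6 were called higher and 1 lower, or 46.7% against 34.8%. Ppargc1a, which encodes the coactivator PGC-1α, fell from 204.3 ± 38.6 CPM in WT to 106.9 ± 42.7 CPM in Rank-knockout (SD, n = 4), by 0.93 on the log2 scale (SE 0.23, adjusted p = 0.00851). Its related coactivator Pprc1 rose by 1.24 (SE 0.30, adjusted p = 0.00643), from 12.4 to 29.1 CPM on average. Hcfc1, a cofactor of GABP, rose by 1.01 (SE 0.22, adjusted p = 0.00308), and Esrrg, an estrogen-related receptor, by 0.86 (SE 0.30, adjusted p = 0.0396), a call that was lost without any 1 of 5 libraries. With all libraries kept, the Esrrg call was also lost with DESeq2, with limma-voom, after thinning and with either GC trend taken out. No call was made for Nrf1 (0.47, adjusted p = 0.130), Gabpa (-0.11, adjusted p = 0.774), Yy1 (0.05, adjusted p = 0.825), Ppargc1b (0.36, adjusted p = 0.0612) or Esrra (-0.47, adjusted p = 0.0824). The other regulators tested, Gabpb1, Gabpb2, Ppara, Ppard, Creb1 and Tfeb, had fold changes of -0.76 to 0.31 and were not called.

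Assembly factors put the subunits of OXPHOS complexes together. Of 17 tested complex I assembly factors 5 were called higher and 0 lower, or 29.4% against the 15.8% of all genes called higher and 30.4% called either way, with a median log2 fold change of 0.52. Ndufaf4 rose from 58.0 ± 3.5 to 93.9 ± 9.9 CPM (SD, n = 4, 0.69, SE 0.14, adjusted p = 0.00252), and Ecsit from 39.0 ± 6.4 to 65.8 ± 6.1 CPM (0.77, SE 0.17, adjusted p = 0.00313). Tmem70, which helps to assemble complexes I and V, rose by 0.63 (adjusted p = 0.0155), a call that was lost without WT replicate 4 (adjusted p = 0.0681). The count higher was 3 without WT replicate 4 and 3 without Rank-knockout replicate 1. Of 33 tested assembly factors of complexes II to V, 6 were called higher and 1 lower, or 21.2%, with a median of 0.21. Under library totals the counts higher were 11 for complex I assembly, or 64.7%, and 12, with 1 lower, for complexes II to V, or 39.4%, against 34.8% of all genes. Bcs1l, which inserts the Rieske protein into complex III, rose by 0.92 (adjusted p = 0.00606), Cmc2 by 0.73 (adjusted p = 0.00617) and Cox10, which makes heme for complex IV, by 0.71 (adjusted p = 0.00688). Sco2, a copper chaperone of complex IV, fell by 1.11 (adjusted p = 0.000556), from 88.5 ± 8.2 to 41.6 ± 10.4 CPM (SD, n = 4).

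Expression of mitochondrial DNA supplies the subunits that complete complexes I, III, IV and V. Of 12 tested genes with this role 8 were called higher and 0 lower, with a median of 0.65. Lrpprc, which stabilizes mitochondrial mRNAs, rose by 0.97 (SE 0.20, adjusted p = 0.00209), from 326.5 ± 112.4 to 644.2 ± 57.1 CPM (SD, n = 4). Fastkd2 rose by 1.12 (adjusted p = 0.00498) and Ssbp1, the single-strand DNA-binding protein of mitochondria, by 0.97 (adjusted p = 0.00812). The count of higher genes depended on single libraries and was 3 when WT replicate 4 was left out, 3 when Rank-knockout replicate 3 was, 4 for WT replicate 1 and 4 for Rank-knockout replicate 1. It also depended on the method. With all libraries it was 5 with DESeq2, 5 after thinning, 6 with the GC trend taken out, 6 with the length trend taken out and 9 under library totals. Of 73 tested mitochondrial ribosomal proteins 41 were called higher and 0 lower, with a median of 0.56, and the higher count fell to 22 without WT replicate 4 and was 62 under library totals. Cytosolic ribosomal proteins had 59 of 66 higher, 0 lower and a median of 0.997. The background of 15.8% higher calls applies to the counts of the main fit with all libraries. Of all genes, 34.8% were called either way under library totals and 29.2% with DESeq2. With 1 of the libraries named here left out, the share was 21.3% to 24.7%.

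Nuclear-encoded subunits reach the mitochondrion through import channels. Of 24 tested genes of mitochondrial import and the outer membrane 8 were called higher and 0 lower, or 33.3% against 15.8% of all genes called higher and 30.4% either way, with a median of 0.29. Under library totals 14 were called higher, or 58.3% against 34.8% of all genes either way. Timm10 and Timm9, which form a chaperone of the intermembrane space, rose by 1.01 (adjusted p = 0.000765) and 0.96 (adjusted p = 0.000923), and Timm50, a receptor of the inner membrane, by 1.09 (adjusted p = 0.00109). Fuel supply was covered by 2 lists, whose share of calls lay on either side of that of all genes depending on the scaling. In the citric acid cycle and pyruvate dehydrogenase 2 of 20 tested genes were called higher and 2 lower, or 20% against 30.4%, with a median of 0.09, while under library totals 9 were higher and 2 lower, or 55% against 34.8%. Pcx, which makes oxaloacetate from pyruvate, fell by 1.03 (adjusted p = 0.000867), and Ogdh, of the oxoglutarate dehydrogenase complex, fell by 0.71 (adjusted p = 0.00153). Pdhx, of pyruvate dehydrogenase, rose by 0.68 (adjusted p = 0.0096). Among 21 genes of ubiquinone synthesis and electron entry 3 were called higher and 1 lower, or 19.0%, and under library totals 8 and 1, or 42.9%, with Coq5 rising by 0.87 (adjusted p = 0.00184) and Gpd2, which feeds electrons from glycerol 3-phosphate, decreased by 0.64 (adjusted p = 0.00388). In 7 tested genes of nucleotide exchange and uncoupling, 0 were called higher and 2 lower, or 28.6% against 14.6% of all genes called lower and 30.4% either way. These were Slc25a3, the phosphate carrier (-0.44, adjusted p = 0.0262), and Ckmt1, a mitochondrial creatine kinase (-0.50, adjusted p = 0.0401), and under library totals neither was called. The call of Slc25a3 was lost on omission of any 1 of 4 libraries and that of Ckmt1 on omission of any 1 of 6, of both genotypes. In the citric acid cycle list the count higher was 1 without any 1 of WT replicates 3 and 4 and Rank-knockout replicates 1, 2 and 3, and in the ubiquinone list it was 1 without WT replicate 1, WT replicate 3 or Rank-knockout replicate 2.

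**Figure D4:**
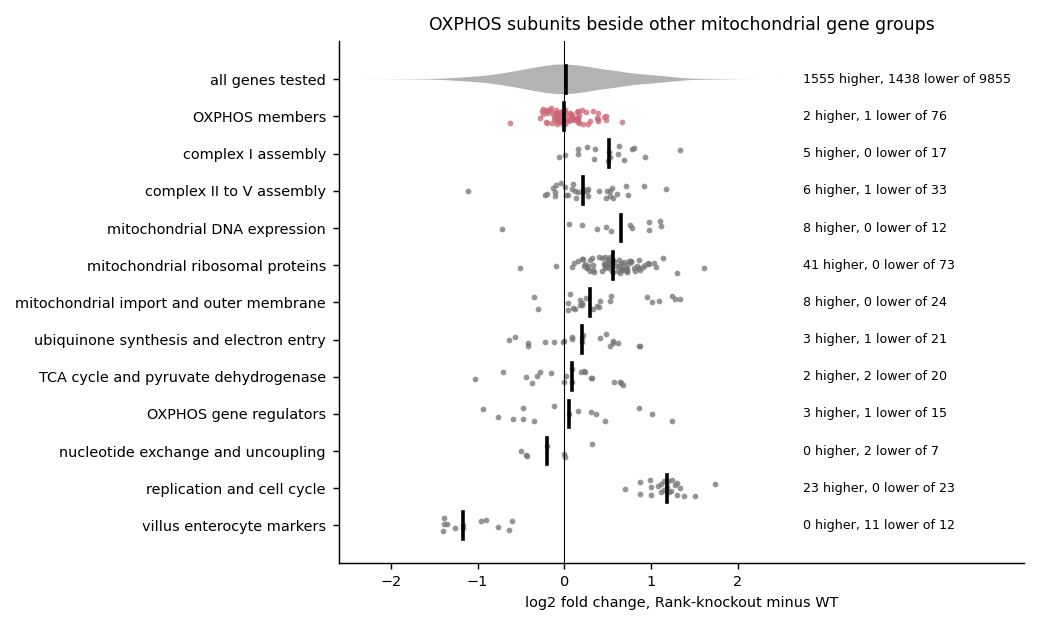
Log2 fold change (Rank-knockout minus WT, horizontal axis) of tested genes, 1 point per gene and a bar at the median, for the members and for the other mitochondrial lists, with the distribution of all genes tested on top and the counts called at the right. The members lie close to 0 (median 0.0014), while mitochondrial DNA expression (0.65), mitochondrial ribosomal proteins (0.56) and complex I assembly (0.52) have higher medians.

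The largest deviations among the members were those of WT replicate 2, down to -2.96 in log2 CPM for Ndufa1. In WT replicate 2 the CPM of 4 members, Atp5j, Ndufa1, Sdhd and Uqcrfs1, was under 0.5 times the lowest other WT library, which held for 241 of 9468 genes whose mean CPM reached 5, or 2.55%. In each of the 7 other libraries 0 members did so. The deviation of WT replicate 2 from the mean of the other WT libraries, in log2 CPM, ran opposite to that of Rank-knockout replicate 4 within its group. Over the 76 members Spearman's rho was -0.68, and over 9855 genes -0.35. With WT replicates 1, 3 and 4, the members' rho of Rank-knockout replicate 4 was 0.26, 0.505 and 0.626. Deviations within a group are tied to each other, since each is taken from the mean of the others. The points share 2 libraries and are not independent. With the GC content of the last 300 transcript bases, the deviation of members had a rho of 0.52 in WT replicate 2 and -0.44 in Rank-knockout replicate 4, against 0.26 and -0.13 over 9849 genes. In the 6 other libraries the members' rho ran from -0.37 to 0.37. Where tags of a gene start was not known, and the part of GC content in these deviations was not tested. With both libraries left out, 2 members were called higher, Ndufa8 and Cox7a2l, and 3 lower, Cox7a1, Ndufa1 and Ndufb3, so 6.58% of members were called against 38.6% of all genes. Without these libraries complex I assembly had 6 higher and 0 lower and mitochondrial DNA expression 7 higher and 1 lower.

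**Figure D5:**
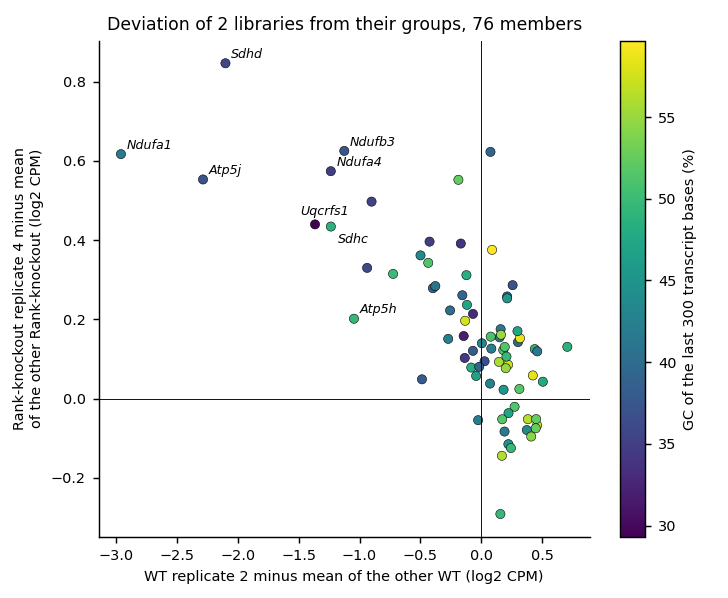
Deviation of WT replicate 2 (horizontal axis) and of Rank-knockout replicate 4 (vertical axis) from the mean of the other libraries of their group, in log2 CPM, for the 76 members, coloured by the GC content of the last 300 transcript bases. Members far to the left, such as Ndufa1, Atp5j and Sdhd, lie above 0 on the vertical axis (rho -0.68).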

How the data were processed

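Intestinal epithelial cells of 4 WT and 4 Rank-knockout mice at lactation day 5 gave 1 library each, and groups and replicate numbers were taken from the sample titles. The deposited values are unnormalized counts of reads for each gene. Per the study's methods, the authors made 3′ mRNA-seq libraries (QuantSeq, forward), trimmed the reads (BBDuk) and took out those from rDNA, the mitochondrial genome, adapters and phiX (bowtie2), then aligned to GRCm38 (mm10 in the labels) with STAR and counted sense reads with featureCounts. Their own test was DESeq2. Without molecular identifiers in the description, copies made by PCR are taken as separate reads. Reads of near-identical genes and pseudogenes can be lost or split.

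Symbols and gene positions came from GENCODE M21 on GRCm38, which held 54495 of the 54532 identifiers. Each row was a gene, and 33764 genes had 0 counts in all libraries. edgeR 4.0.16 in R 4.3.3 was run on the counts with filterByExpr, TMM scaling and a robust quasi-likelihood test of genotype, with Benjamini-Hochberg adjustment over all genes tested. The 95% confidence intervals came from the SE and the total degrees of freedom of that fit. Lists were described by counts and medians, without a test. The method was also run on simulated counts with known changes, where changes of 1.5-fold gave few calls. A gene that was not called is therefore not shown to be unchanged. Neither the labels nor the methods tie same-numbered samples to each other, and replicates differed by more than counting noise. Since 1 animal gave 1 library, p-values measure the spread between animals together with that of the preparations.

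Alternatives were RLE size factors, library totals, totals without the 50 most abundant genes, DESeq2 1.42.0, no filter, a mean CPM filter of 5, limma-voom (limma 3.58.1), thinning to 1530781 counts, a trend with GC content or with length taken out per library, the replicate number as a block, and omission of each library in turn. Another 3, WT replicate 2 left out under library totals, WT replicate 2 and Rank-knockout replicate 4 left out together, and a trend with GC content of the last 300 transcript bases, were chosen after seeing the data. The GC content and length are those of the longest protein-coding transcript. End windows are 50-base stretches of its last 300 bases, compared with the transcripts of all other genes.

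The members, lists and rule for naming genes were chosen with earlier results of these data known. Named in every library were, per complex, the called members, the 2 largest and 2 smallest fold changes and the highest mean CPM, with all of complex II, Cyc1 and Cycs, and, with their values, members of the catalytic core, the ATP synthase subgroups and tissue-restricted forms with their common partner. From other lists, up to 3 called genes of smallest p in each direction and every tested regulator were named. Ndufa1, Ndufa4, Uqcrfs1 and the members of the other examples were added after their values were seen. The values of 1 member are not reported here.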

Additional observations from a re-analysis of the deposited data

Results flagged for a closer look

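In 13 of 162 sets of 4 libraries, a member or the sum of a complex had 1 library whose gap to the nearest other, as a share of the range, passed Dixon's 95% limit of 0.829. Chance gives about 1 in 20, here 8.1 sets. The sets share the same libraries and the sums contain the members, so they are not independent and 8.1 gives no test of the 13. Rank-knockout replicate 4 accounted for 6 of these, WT replicate 3 for 4, WT replicate 2 for 2 and Rank-knockout replicate 1 for 1.

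Rank-knockout replicate 4 was the highest of its group for all 6. It held 212.7 CPM of Ndufa1 against 138.0 to 138.8 in the others, 155.5 CPM of Ndufa4 against 102.8 to 106.1, 177.7 CPM of Ndufb3 against 110.6 to 118.2, 144.2 CPM of Ndufc2 against 106.6 to 112.9, 356.4 CPM of Uqcrfs1 against 254.4 to 269.2, and 1310 CPM of Cox6b1 against 1029 to 1075. WT replicate 2 was the lowest of its group for Ndufa1, at 28.89 CPM against 225.0 to 233.6, and for Atp5h, at 72.98 CPM against 145.9 to 157.8.

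WT replicate 3 was the highest WT library for Ndufc2 (133.2 CPM against 95.5 to 97.2), Uqcrb (277.3 CPM against 233.6 to 236.2), Cox5a (795.6 CPM against 573.1 to 604.2) and the summed CPM of complex IV (8175 against 6855 to 7050). Rank-knockout replicate 1 was the lowest of its group for Cox6c, at 1622 CPM against 2236 to 2342. The causes were not tested.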

How the results depend on the processing

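The few member calls and the sign of small fold changes depended on the scaling and on single libraries, while the members' median stayed within 0.1 of that of all genes under every alternative. RLE size factors, no filter, a mean CPM of at least 5, DESeq2, limma-voom, thinning and both GC trends gave 2 members higher and 1 lower, with Cox7a2l in place of Atp5g1 after thinning (Atp5g1 adjusted p = 0.0532). Library totals gave 9 higher and 0 lower with a median of 0.2015 (2575 genes higher and 857 lower in all), totals without the 50 most abundant genes 4 and 0 with 0.1321, the length trend 1 and 4 with -0.115 (Ndufa8 no longer called, Ndufa6, Cox6a1 and Atp5o called lower beside Cox7a1), and library totals without WT replicate 2 gave 11 and 0 with 0.1997 (2497 genes higher). Single libraries or the pair left out gave 1 to 2 members higher, 0 to 3 lower and 1020 to 1838 genes higher. Same-numbered libraries had correlations of 0.0517, 0.153, -0.139 and 0.323 between their deviations. WT replicates 1 and 4 correlated best with the Rank-knockout library of their own number. WT replicate 2 correlated best with Rank-knockout replicate 3 (0.249), and WT replicate 3 with Rank-knockout replicate 4 (0.123). Whether same-numbered animals form pairs was not tested. With the replicate number as a block 2 members were higher and 1 lower, 1708 genes higher and 1602 lower, and with the GC trend in the same fit 2 and 1 members.

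Of 529 values of 23 named members under 23 alternatives, 469 kept direction and side of the threshold, and 30 changed sign, none of them a called member. Under library totals these were Ndufb8 (0.1146), Sdha (0.08668), Sdhb (0.00699) and Uqcrh (0.002694), and without the 50 most abundant genes Ndufb8 (0.04508) and Sdha (0.01771). Under library totals without WT replicate 2 they were Ndufa12 (0.1348), Ndufb8 (0.233), Sdha (0.1189), Sdhb (0.08214), Sdhc (-0.03589), Uqcrc1 (0.0004816), Uqcrh (0.1341) and Atp5o (0.06382). With the length trend they were Sdhc (-0.03191), Uqcr10 (-0.04026) and Cox6c (-0.1148). Sdhc also had -0.007703 with RLE, -0.01167 with DESeq2, -0.03958 with the GC trend and -0.05711 with that of the last 300 bases. With libraries left out the ranges were -0.1801 to 0.03364 for Ndufb8, -0.3634 to 0.2015 for Sdhc, -0.1518 to 0.7201 for Sdhd, -0.004522 to 0.1813 for Cox6c and -0.1336 to 0.5885 for Atp5j. The cause was not tested. Counts of at most 77 over all libraries left 11 members untested.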
